A study of Homo sapiens with 12 samples.

Results

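NF-kappaB is a family of transcription factors built as dimers of RELA, REL, RELB and the processed products of NFKB1 and NFKB2. The 10 genes described here are the canonical subunits NFKB1, RELA and REL, the non-canonical subunits NFKB2 and RELB, and the inhibitors NFKBIA, NFKBIB, NFKBIE, NFKBIZ and TNFAIP3. They were chosen by name, with earlier results of these data known. Every probe whose transcript accession belongs to 1 of them in a RefSeq gene table was taken, which gave 12 probes of 34127 on the array, and these genes are 10 of its 27522 gene names. RELA and NFKBIB had 2 probes each and the other genes 1. The probes of NFKB1, NFKB2 and NFKBIA and the brighter one of RELA had 10 spots per array, and every other probe 1.

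In resting cells the dimers are held in the cytoplasm by IkappaB proteins. In the canonical pathway the IKK complex marks IkappaB for destruction and frees RELA or REL dimers to enter the nucleus. In the non-canonical pathway the kinase NIK (MAP3K14) drives processing of the NFKB2 precursor, whose product pairs with RELB. Several inhibitor genes, NFKBIA, NFKBIE, NFKBIZ and TNFAIP3 among them, are themselves switched on by NF-kappaB and close a negative feedback loop. The same holds for NFKB1, NFKB2, REL and RELB, so that much of the pathway is part of its own target set.

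U2OS cells, a human osteosarcoma line, received a lipid-delivered siRNA at 20 nM and, per the methods, grew for 48 h. The siRNA was a control or was directed at DBP5, at GLE1 or at IPPK. DBP5 (gene DDX19B) is an RNA helicase of mRNA export, GLE1 stimulates it, and IPPK makes the inositol phosphate that takes part in this step. Cytoplasmic RNA was put on 12 arrays with a single dye. There were 3 arrays per siRNA, spread over 3 slides that carried all 4 siRNAs. The study compared each knock-down with control to ask which cytoplasmic mRNAs depend on each export factor. The methods name 1 siRNA against DBP5, and the sources used here do not say which control, GLE1 or IPPK siRNA was put on the arrays. All cells come from 1 line with no stimulus of NF-kappaB named in the labels.

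The siRNA targets checked the labels. DDX19B fell to 6.43% of control in DBP5 knock-down, GLE1 to 10.2% in GLE1 knock-down and IPPK to 18.7% in IPPK knock-down. The knock-downs were not fully separate at this level, since DDX19B was also at 49% of control with GLE1 siRNA and IPPK at 42% with DBP5 siRNA (adjusted p = 3.6e-08 and 7.9e-08). The share of probes well above background ran from 70.9% to 77.7% over the arrays and was 70.9% to 73.8% with IPPK siRNA. Of 9 osteoblast lineage markers, RUNX2, SP7, ALPL, BGLAP, SPP1, COL1A1 and SPARC were well above background on all 12 arrays, while COL1A2 was so on 5 and the bone sialoprotein gene IBSP on 0. The leukocyte marker MS4A1 was above background on 4 arrays, CD3E on 11, and PTPRC, CD14, ITGAM and CD68 on all 12. The summed intensity of these 6 leukocyte markers was 1141 to 1239 on control arrays, 1314 to 1347 with DBP5 siRNA, 1269 to 1353 with GLE1 siRNA and 1012 to 1128 with IPPK siRNA. The 9 osteoblast lineage markers summed to 14941 to 16162, 14360 to 16134, 12211 to 13830 and 10720 to 11961 in the same order. The 4 epithelial markers, of which EPCAM and KRT19 were above background on all 12 arrays, CDH1 on 8 and KRT5 on 0, summed to 783 to 922, 563 to 610, 748 to 930 and 350 to 588. These sums add probes of unlike brightness, some of them too dim to test, and mostly follow the brightest ones. The part of the markers in the results was not tested.

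A RefSeq promoter table (GRCh38.p14, windows from 250 bases before to 50 bases after a transcription start) held 14 windows for 8 of the members, NFKB1, RELA, REL, NFKB2, NFKBIA, NFKBIB, NFKBIZ and TNFAIP3. The kappaB-type motif GGGANNTTCC, read on either strand, was in 7 of these 14 windows and in 564 of all 35116 windows (1.61%). The 7 windows belong to 7 of the 8 genes. The stretches around these motifs are shown because NF-kappaB dimers are known to bind sequences of this kind, here beside genes of the family itself. Each is written 5′ to 3′ on the strand of its gene, with the motif in capitals. A motif on the opposite strand appears as its reverse complement, and in REL and NFKBIB motifs on both strands overlap by all but 1 base.
NFKB1, chr4:102501285-102501344, plus strand: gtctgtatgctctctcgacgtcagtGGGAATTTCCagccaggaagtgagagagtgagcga
REL, chr2:60881503-60881562, plus strand: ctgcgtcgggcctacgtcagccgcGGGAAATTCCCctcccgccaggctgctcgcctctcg
NFKB2, chr10:102395674-102395703, plus strand: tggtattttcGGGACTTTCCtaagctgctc
NFKBIA, chr14:35404796-35404855, minus strand: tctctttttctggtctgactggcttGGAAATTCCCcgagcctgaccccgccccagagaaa
NFKBIB, chr19:38899932-38899961, plus strand: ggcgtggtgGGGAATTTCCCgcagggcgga
NFKBIZ, chr3:101827742-101827801, plus strand: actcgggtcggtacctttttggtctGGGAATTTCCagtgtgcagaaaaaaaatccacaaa
TNFAIP3, chr6:137867167-137867226, plus strand: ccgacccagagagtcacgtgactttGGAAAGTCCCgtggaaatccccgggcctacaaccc
The motif began 49 bases before the start in NFKB1, 47 in REL, 81 in NFKBIA, 67 in TNFAIP3 and 223 in NFKBIZ. In NFKB2 and NFKBIB it lay before a start further downstream, by 21 and 28 bases. NFKB2 and TNFAIP3 carry the same 10 letters on opposite strands, and NFKB1, NFKBIB and NFKBIZ share another 10 on the same strand, which REL and NFKBIA hold on the opposite strand. A match is a description of these letters and not a shown binding site. The 2 windows of RELA held no match.

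All 12 probes were well above background on all 12 arrays, so no member was lost to the filter on dim probes. Values are intensities after subtraction of the local background and loess normalization, in arbitrary units. They are compared between arrays for a probe and, the marker sums above apart, never between probes. The normalization brings the arrays to a common level, so each change is relative to the bulk of genes. A loss or gain shared by most cytoplasmic mRNAs would not show. A difference was called where limma gave a Benjamini-Hochberg adjusted p of at most 0.05 over the 20821 genes kept. In DBP5 knock-down 6 of 10 members were called lower and 0 higher, against 27.5% of all genes called lower and 26.7% higher (54.3% in either direction). Among the 6 is NFKBIB, for which the brighter of its probes was called lower and the dimmer one higher, with 0.0024 (adjusted p = 0.98) for their mean. At an unadjusted p of 0.05 the members past the threshold in this comparison were 7, the added gene being RELB, which stood higher, and 58.2% of all genes were past it. In GLE1 knock-down 2 were called lower and 4 higher, against 31.5% and 30.6% of all genes (62% in either direction). In IPPK knock-down 5 were called lower and 3 higher, against 28% and 27.3% of all genes (55.4% in either direction). The median log2 fold change of the members was -0.37, 0.11 and -0.08 in the DBP5, GLE1 and IPPK knock-downs, and that of all genes -0.02, 0.01 and -0.03. Taking single arrays, 7, 8 and 10 of the 10 members had knock-down arrays that did not overlap the control arrays, as did 59.2%, 68.5% and 63.7% of all genes. The 3 comparisons share their control arrays. In these bulk samples, fewer cells with a transcript and less of it per cell cannot be told apart.

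**Figure D1:**
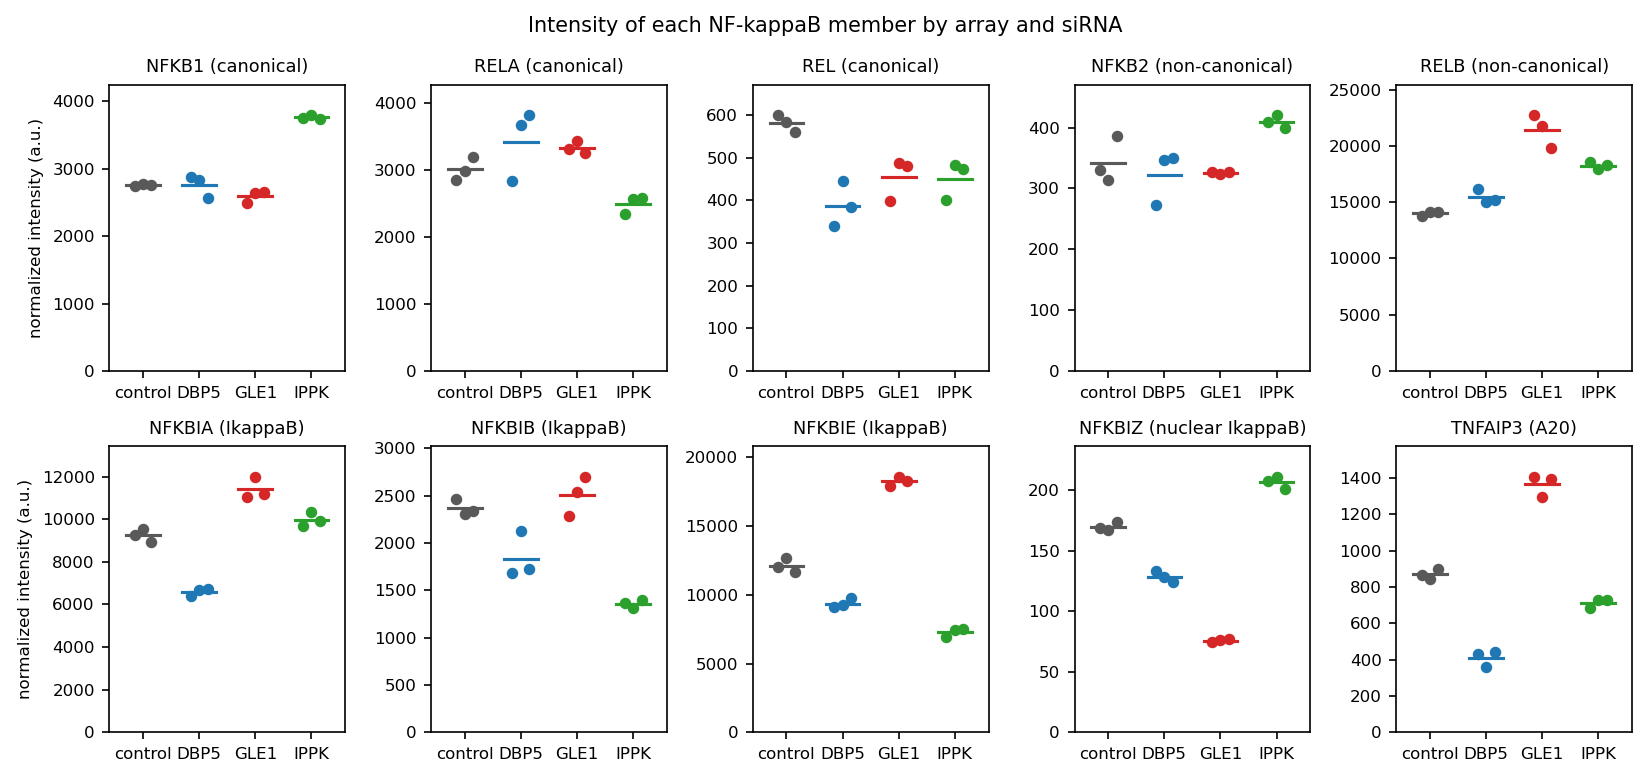
Normalized intensity (arbitrary units, axis from 0, 1 scale per gene) of the brightest probe of each of the 10 members on the 12 arrays; points are arrays in replicate order, bars the mean of the log2 values of the 3 arrays of a siRNA. TNFAIP3 was lowest with DBP5 siRNA (410) and highest with GLE1 siRNA (1364), while NFKBIZ was lowest with GLE1 siRNA (75.8) and highest with IPPK siRNA (207).

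The canonical subunits did not move together. NFKB1, which encodes the precursor p105 and its product p50, rose in IPPK knock-down alone. RELA, the transactivating partner of p50, was called lower only there, and REL was called lower in each knock-down by limma, though not by the methods' t-test with arrays paired by slide. For NFKB1 (NCBI gene 4790, chromosome 4) the control arrays gave 2745, 2767 and 2752, the DBP5 arrays 2881, 2829 and 2560.0, the GLE1 arrays 2498, 2635 and 2659 and the IPPK arrays 3757, 3795 and 3741. The IPPK arrays stood above all others, the GLE1 arrays lay below control and the DBP5 arrays on both sides of it. NFKB1 was 1.37-fold control with IPPK siRNA (log2 fold change 0.45 ± 0.05 (SE), adjusted p = 3.45e-05), with 99.9% of control for DBP5 and 94.2% for GLE1 (adjusted p = 0.991 and 0.189). The 95% interval of its ratio to control was 0.922 to 1.08-fold with DBP5 siRNA and 0.869 to 1.02-fold with GLE1 siRNA.

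RELA (gene 5970, chromosome 11) gave 2855, 2979 and 3196 on the control arrays, 2832, 3663 and 3814 with DBP5 siRNA, 3316, 3427 and 3249.8 with GLE1 siRNA and 2344, 2562 and 2574 with IPPK siRNA. All IPPK arrays were below all others, the GLE1 arrays were above control, and DBP5 replicate 1 lay apart from the other two at the level of control. With IPPK siRNA RELA was at 82.9% of control (log2 fold change -0.27 ± 0.10 (SE), adjusted p = 0.0437). This call was lost on leaving out any 1 of the 9 control, GLE1 and IPPK arrays, with an adjusted p of 0.0525 to 0.135, and also without a filter on dim probes (0.0631). The RELA value in DBP5 knock-down was 0.18 (adjusted p = 0.168), and without DBP5 replicate 1 it was 0.31 with an adjusted p of 0.00272. In GLE1 knock-down it was 0.15 (adjusted p = 0.243).

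REL (gene 5966, chromosome 2) encodes c-Rel, best known from lymphocytes. Its arrays gave 599, 585 and 559 with control siRNA, 339.9, 445 and 385 with DBP5 siRNA, 399, 487 and 481 with GLE1 siRNA and 400.2, 482 and 474 with IPPK siRNA. Replicate 1 was the lowest array of each knock-down and the highest of control, and no knock-down array reached a control array. REL fell to 66.8% of control with DBP5 siRNA (log2 fold change -0.58 ± 0.11 (SE), adjusted p = 0.00137), to 78.1% with GLE1 siRNA (adjusted p = 0.0193) and to 77.6% with IPPK siRNA (adjusted p = 0.0194). The GLE1 call had an adjusted p of 0.0575 without control replicate 1 and 0.0778 without GLE1 replicate 1. The IPPK call had 0.058 without control replicate 1 and 0.0737 without IPPK replicate 1. By the methods' t-test the REL differences had an adjusted p of 0.098, 0.138 and 0.135 with DBP5, GLE1 and IPPK siRNA.

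Of the non-canonical subunits, RELB rose in GLE1 and in IPPK knock-down, while NFKB2 passed the threshold in neither. RELB (gene 5971, chromosome 19) encodes the partner of the NFKB2 product p52. Its arrays gave 13744, 14165 and 14129.8 with control siRNA, 16138, 15008 and 15226 with DBP5 siRNA, 22747, 21829 and 19833 with GLE1 siRNA and 18540.3, 17918 and 18329.7 with IPPK siRNA. The groups did not overlap and ran in the order control, DBP5, IPPK, GLE1. RELB was 1.53-fold control in GLE1 knock-down (log2 fold change 0.61 ± 0.06 (SE), adjusted p = 4.23e-06) and 1.3-fold in IPPK knock-down (log2 fold change 0.38 ± 0.06 (SE), adjusted p = 0.000206). In DBP5 knock-down it was 1.1-fold control with an adjusted p of 0.059 (interval 1.01 to 1.2-fold), and neighbours in the order differed by limma otherwise (DBP5 against IPPK, adjusted p = 0.00515, and GLE1 against IPPK, 0.00496). By the methods' t-test the difference of RELB between GLE1 and IPPK knock-down had an adjusted p of 0.0966.

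NFKB2 (gene 4791, chromosome 10) encodes the precursor p100, which also acts as an IkappaB. Its arrays gave 329.9, 315 and 387 with control siRNA, 273, 347 and 350.0 with DBP5 siRNA, 327, 324 and 327 with GLE1 siRNA and 409, 420.4 and 400.1 with IPPK siRNA. The 3 IPPK arrays were above every other array, and the other groups overlapped. NFKB2 was 1.2-fold control with IPPK siRNA (interval 1.02 to 1.4-fold), at an adjusted p of 0.0503 that became 0.0431 with the replicate number as a block. It was 93.8% of control with DBP5 siRNA and 95.2% with GLE1 siRNA (adjusted p = 0.494 and 0.588).

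**Figure D2:**
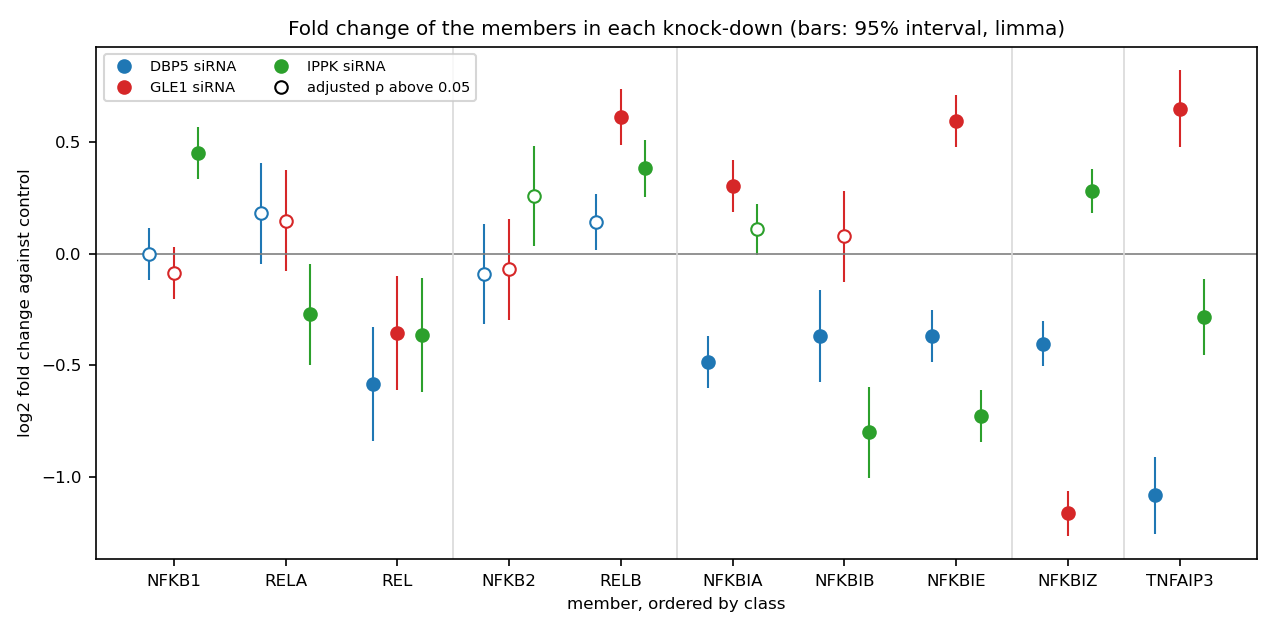
Log2 fold change against control (y axis) of the 10 members, ordered by class, in the 3 knock-downs; points are limma estimates from 3 arrays against 3, bars 95% intervals, and open points have an adjusted p above 0.05. The inhibitors spread from -1.17 (NFKBIZ, GLE1 siRNA) to 0.65 (TNFAIP3, GLE1 siRNA), and the subunits from -0.58 (REL, DBP5 siRNA) to 0.61 (RELB, GLE1 siRNA).

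Of the classical IkappaB genes, NFKBIA and NFKBIE were called lower in DBP5 knock-down and higher in GLE1 knock-down, and NFKBIE was called lower in IPPK knock-down. NFKBIB was called lower with DBP5 and IPPK siRNA by its brighter probe, while its dimmer probe was called higher with DBP5 siRNA. NFKBIA (gene 4792, chromosome 14) encodes IkappaB alpha, the fast feedback inhibitor of RELA dimers, and its promoter stretch is printed above. Its arrays gave 9253, 9547 and 8940.4 with control siRNA, 6377, 6695 and 6740.4 with DBP5 siRNA, 11062, 11995 and 11177 with GLE1 siRNA and 9664, 10336 and 9906 with IPPK siRNA. The DBP5 arrays were the lowest and the GLE1 arrays the highest, with no overlap of any groups. NFKBIA fell to 71.4% of control with DBP5 siRNA (log2 fold change -0.49 ± 0.05 (SE), adjusted p = 1.9e-05) and rose to 1.23-fold control with GLE1 siRNA (log2 fold change 0.30 ± 0.05 (SE), adjusted p = 0.000444). With IPPK siRNA it was 1.08-fold control (adjusted p = 0.104).

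NFKBIE (gene 4794, chromosome 6) encodes IkappaB epsilon, a slower feedback inhibitor. Its arrays gave 11979, 12643 and 11605 with control siRNA, 9117, 9214 and 9722 with DBP5 siRNA, 17867, 18556 and 18244 with GLE1 siRNA and 6936, 7409 and 7539 with IPPK siRNA. The 4 groups were fully separate, in the order IPPK, DBP5, control, GLE1. NFKBIE fell to 77.5% of control with DBP5 siRNA (adjusted p = 0.000157) and to 60.4% with IPPK siRNA (log2 fold change -0.73 ± 0.05 (SE), adjusted p = 9.79e-07), and rose to 1.51-fold control with GLE1 siRNA (log2 fold change 0.59 ± 0.05 (SE), adjusted p = 3e-06). By the methods' t-test the DBP5 fall had an adjusted p of 0.071.

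NFKBIB (gene 4793, chromosome 19) encodes IkappaB beta, which is not part of the fast feedback loop. Its brighter probe gave 2469, 2309 and 2338 with control siRNA, 1687, 2130.0 and 1723 with DBP5 siRNA, 2285, 2539 and 2701 with GLE1 siRNA and 1370.1, 1319 and 1394 with IPPK siRNA. The IPPK arrays were the lowest, and DBP5 replicate 2 stood above the other DBP5 arrays but below control. By this probe NFKBIB fell to 77.4% of control with DBP5 siRNA (adjusted p = 0.00598) and to 57.4% with IPPK siRNA (log2 fold change -0.80 ± 0.09 (SE), adjusted p = 3.08e-05), with 1.06-fold control in GLE1 knock-down (adjusted p = 0.503). By the methods' t-test the DBP5 fall of this probe had an adjusted p of 0.181.

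The second, dimmer probe of NFKBIB did not share these falls. The accession of the brighter probe is that of a non-coding NFKBIB transcript and that of the dimmer probe of a coding one, so the probes are listed against different transcripts of the gene. The dimmer probe gave 771, 792 and 808 with control siRNA, 931, 1083 and 1064 with DBP5 siRNA, 814, 801 and 787 with GLE1 siRNA and 832, 849.5 and 821 with IPPK siRNA. It was highest on the DBP5 arrays, where the brighter probe was low. In a fit over all 25879 probes kept it rose in DBP5 knock-down (log2 fold change 0.37 ± 0.06 (SE), adjusted p = 0.000353), with log2 fold change 0.08 ± 0.06 (SE), adjusted p = 0.306 in IPPK knock-down. With the mean of both probes the DBP5 value of NFKBIB was 0.0024 (adjusted p = 0.98), so the direction of NFKBIB in DBP5 knock-down depends on the probe. The IPPK fall stayed called with that mean (-0.36, adjusted p = 0.000784). The dimmer RELA probe gave 1754, 1702 and 1927 with control siRNA and 1301, 1357 and 1410.1 with IPPK siRNA. Its IPPK value was in the direction of the brighter one (log2 fold change -0.40 ± 0.10 (SE), adjusted p = 0.00467), and its DBP5 and GLE1 values had an adjusted p of 0.296 and 0.915.

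**Figure D3:**
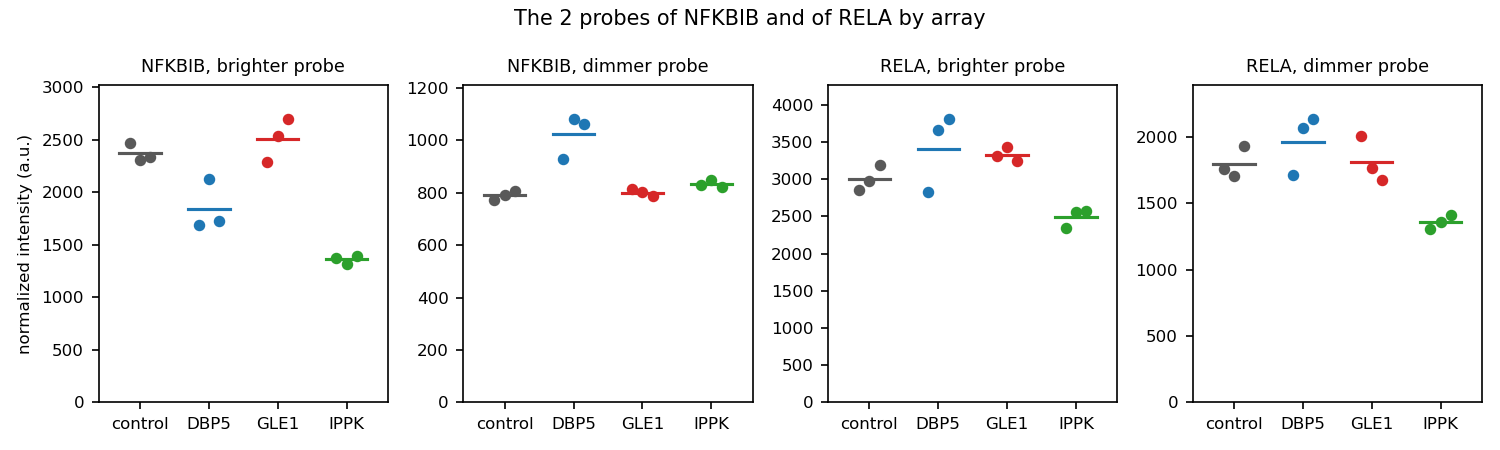
Normalized intensity (arbitrary units, axis from 0, 1 scale per panel) of the brighter and the dimmer probe of NFKBIB and of RELA on the 12 arrays; points are arrays in replicate order, bars the mean of the log2 values of the 3 arrays of a siRNA. The NFKBIB probes part with DBP5 siRNA (1687, 2130.0 and 1723 below control, against 931, 1083 and 1064 above control), while both RELA probes are lowest with IPPK siRNA.

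NFKBIZ (gene 64332, chromosome 3) encodes IkappaB zeta, a nuclear member of the family that works with p50 at secondary response genes. Its arrays gave 169, 167 and 174 with control siRNA, 133, 128 and 124 with DBP5 siRNA, 74.5, 76.1 and 76.9 with GLE1 siRNA and 208, 211 and 201 with IPPK siRNA. The 4 groups were fully separate, in the order GLE1, DBP5, control, IPPK, and spread within a group was small beside the gaps. NFKBIZ fell to 44.6% of control with GLE1 siRNA (log2 fold change -1.17 ± 0.04 (SE), adjusted p = 6.66e-09) and to 75.6% with DBP5 siRNA (log2 fold change -0.40 ± 0.04 (SE), adjusted p = 2.47e-05), and rose to 1.22-fold control with IPPK siRNA (log2 fold change 0.28 ± 0.04 (SE), adjusted p = 0.000337). Among the members it was the only inhibitor that was lower with GLE1 siRNA and higher with IPPK siRNA.

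TNFAIP3 (gene 7128, chromosome 6) encodes a ubiquitin-editing enzyme that shuts off signalling upstream of IKK. Its arrays gave 865, 843 and 901 with control siRNA, 429, 361 and 444 with DBP5 siRNA, 1407, 1295 and 1392 with GLE1 siRNA and 683, 729.6 and 729 with IPPK siRNA. The groups did not overlap and ran in the order DBP5, IPPK, control, GLE1. TNFAIP3 fell to 47.2% of control with DBP5 siRNA (log2 fold change -1.08 ± 0.08 (SE), adjusted p = 9.54e-07) and to 82.1% with IPPK siRNA (log2 fold change -0.28 ± 0.08 (SE), adjusted p = 0.00944), and rose to 1.57-fold control with GLE1 siRNA (log2 fold change 0.65 ± 0.08 (SE), adjusted p = 2.85e-05). By the methods' t-test the IPPK difference had an adjusted p of 0.0509.

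The members were then compared between classes, array by array, as the mean log2 difference of a class from its control mean. These are descriptions with no test, since the values are means over members of different probes. The canonical mean of NFKB1, RELA and REL was -0.13 ± 0.12 (SD, n = 3) with DBP5 siRNA, -0.10 ± 0.07 with GLE1 siRNA and -0.06 ± 0.08 with IPPK siRNA. The non-canonical mean of NFKB2 and RELB was 0.02 ± 0.07, 0.27 ± 0.05 and 0.32 ± 0.01 in the same order. The non-canonical minus canonical difference was -0.05 to 0.08 on the control arrays, 0.08 to 0.20 with DBP5 siRNA, 0.29 to 0.50 with GLE1 siRNA and 0.33 to 0.48 with IPPK siRNA. The mean of the induced inhibitors NFKBIA, NFKBIE, NFKBIZ and TNFAIP3 was -0.59 ± 0.04 with DBP5 siRNA, 0.10 ± 0.01 with GLE1 siRNA and -0.16 ± 0.04 with IPPK siRNA. Against the canonical subunits of the same array the induced inhibitors stood at -0.61 to -0.31 with DBP5 siRNA, at 0.15 to 0.26 with GLE1 siRNA and at -0.12 to -0.05 with IPPK siRNA. The near-zero inhibitor mean in GLE1 knock-down holds opposite values, -1.17 for NFKBIZ and 0.30 to 0.65 for the other inhibitors in it. The non-canonical mean in GLE1 knock-down likewise joins 0.61 for RELB with -0.07 for NFKB2, which was not called. The canonical mean joins -0.58 for REL with 0.18 for RELA in DBP5 knock-down, and -0.36 with 0.15 in GLE1 knock-down. RELA was called in neither. In IPPK knock-down the canonical mean joins 0.45 for NFKB1 with -0.27 and -0.37 for RELA and REL, and the inhibitor mean joins 0.28 and 0.11 for NFKBIZ and NFKBIA with -0.73 and -0.28 for NFKBIE and TNFAIP3.

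**Figure D4:**
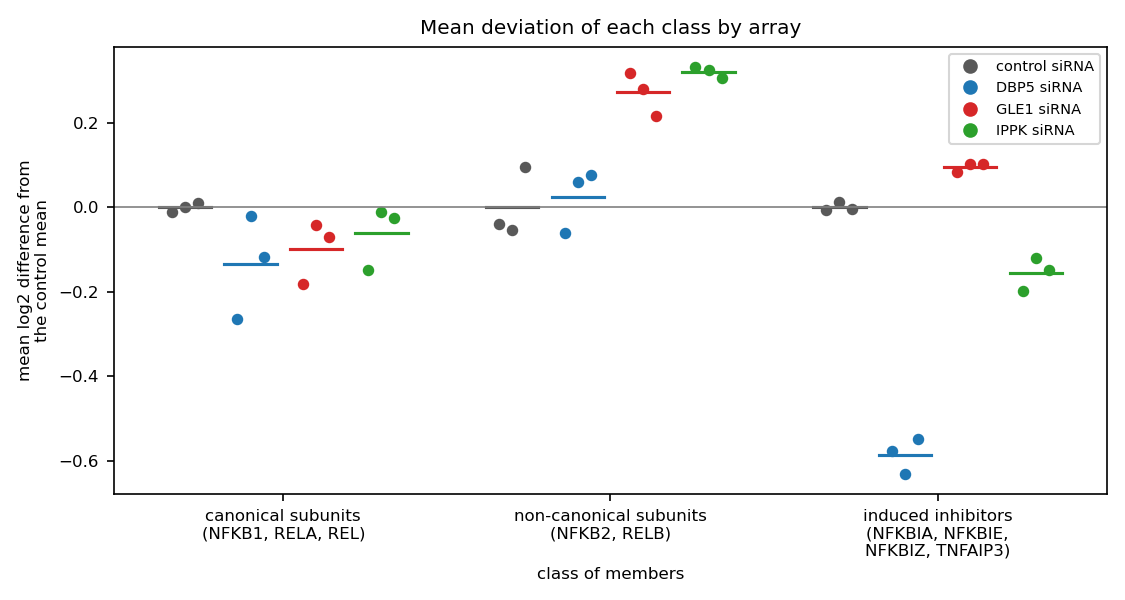
Mean log2 difference from the control mean (y axis) of the canonical subunits, the non-canonical subunits and the induced inhibitors (x axis) on each of the 12 arrays; points are arrays, bars group means. The non-canonical subunits sit at 0.27 with GLE1 siRNA (RELB at 0.61, NFKB2 at -0.07) and 0.32 with IPPK siRNA, and the induced inhibitors at -0.59 with DBP5 siRNA.

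Knock-downs were also compared with each other in the same fit. Between GLE1 and DBP5 knock-down 6 of 10 members were called (54.6% of all genes), 1 lower and 5 higher with GLE1 siRNA against 28% and 26.5% of all genes, and the 4 others were NFKB1, RELA, REL and NFKB2. TNFAIP3 was 3.33-fold, NFKBIE 1.95-fold and NFKBIA 1.73-fold higher with GLE1 siRNA (adjusted p = 3.59e-08, 1.45e-07 and 5.18e-07). NFKBIZ was 1.69-fold lower with GLE1 siRNA (adjusted p = 2.37e-07). NFKBIB by its brighter probe was 1.36-fold higher with GLE1 siRNA (adjusted p = 0.00187), while its dimmer probe was called lower (log2 difference -0.35, adjusted p = 0.000504) and the mean of both probes gave 0.05 (adjusted p = 0.602). REL was 1.17-fold higher with GLE1 siRNA at an adjusted p of 0.123, and at 0.0453 with the replicate number as a block.

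Between GLE1 and IPPK knock-down 9 of 10 members were called (60.2% of all genes), all but REL, with 3 lower and 6 higher with GLE1 siRNA against 30.7% and 29.4% of all genes. NFKBIE was 2.5-fold, TNFAIP3 1.91-fold and NFKBIB by its brighter probe 1.84-fold higher with GLE1 siRNA (adjusted p = 1.21e-08, 2.09e-06 and 1.26e-05). For NFKBIB the dimmer probe had a log2 difference of -0.06 (adjusted p = 0.43), and the mean of both probes 0.41 (adjusted p = 0.000289). NFKBIZ was 2.72-fold and NFKB1 1.45-fold lower with GLE1 siRNA (adjusted p = 2.54e-09 and 7.59e-06). REL was 1.01-fold its IPPK value with an interval of 0.844 to 1.2-fold.

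Between DBP5 and IPPK knock-down 9 of 10 members were called (48.9% of all genes), again without REL, with 6 lower and 3 higher with DBP5 siRNA against 25.1% and 23.8% of all genes. TNFAIP3 was 1.74-fold, NFKBIZ 1.61-fold, NFKBIA 1.51-fold and NFKB1 1.37-fold lower with DBP5 siRNA (adjusted p = 1.25e-05, 8.39e-07, 6.37e-06 and 4.88e-05). RELA was 1.37-fold and NFKBIE 1.28-fold higher with DBP5 siRNA (adjusted p = 0.00394 and 0.00025). By the methods' t-test on slide pairs, TNFAIP3, NFKB1, RELA, NFKB2 and NFKBIB were not called in this comparison (adjusted p = 0.0652, 0.0548, 0.0986, 0.18 and 0.156). The arrays did not overlap for 6, 9 and 9 members in the 3 comparisons between knock-downs, in the order given, and for 60.6%, 67.9% and 56.2% of all genes. From the lowest to the highest of the 4 siRNAs, the means of TNFAIP3 spanned 3.33-fold, those of NFKBIZ 2.72-fold and those of NFKBIE 2.5-fold. The subunits spanned less, from 1.28-fold for NFKB2 to 1.53-fold for RELB. Of all genes tested, 8.71% had a wider span than TNFAIP3, 14.5% than NFKBIZ and 79.7% than NFKB2.

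Upstream of the members, receptors and adaptors were called in both directions. Of 21 listed, 20 were tested, and TNFRSF11A was too dim. In DBP5 knock-down 7 were lower and 6 higher, in GLE1 knock-down 5 and 13, and in IPPK knock-down 7 and 6, with medians of -0.02, 0.31 and 0.00 on the log2 scale. Of all genes 27.5% and 26.7%, 31.5% and 30.6%, and 28% and 27.3% were called lower and higher in these comparisons. Here and in the following lists, a gene is named for a change among the largest of its list in at least 1 knock-down, and for some of these genes the values in other knock-downs are added. TLR3, the receptor of double-stranded RNA, fell to 24.1% of control and IRAK2 to 44.7% with DBP5 siRNA. IL1RAP, the co-receptor of interleukin 1, fell to 21.5% with GLE1 siRNA. The receptor CD40 fell to 50.3%, 50.8% and 54.1% with DBP5, GLE1 and IPPK siRNA. TRAF3, which holds NIK in check, fell to 28% and IRAK1 to 34.3% with IPPK siRNA. The kinase IRAK4 rose to 1.81-fold, 2.31-fold and 2.9-fold control with DBP5, GLE1 and IPPK siRNA. RIPK1 rose to 1.69-fold control with DBP5 siRNA and 2.03-fold with IPPK siRNA, and MYD88 to 1.77-fold with GLE1 siRNA. The adjusted p of these changes was at most 7.37e-06. Some of these genes also moved elsewhere, given here as the range of the 3 arrays in percent of the control mean. With GLE1 siRNA, RIPK1 stood at 138% to 145%, IRAK2 at 128% to 143%, TLR3 at 58.7% to 72.1% and TRAF3 at 64.5% to 67.5%. With IPPK siRNA, TLR3 stood at 136% to 138% and IRAK2 at 60.8% to 62.5%. With DBP5 siRNA, MYD88 stood at 60.2% to 68.1%.

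Of the 11 kinases around IKK and TAK1, 3 were lower and 6 higher in DBP5 knock-down, 2 and 6 in GLE1 knock-down, and 2 and 7 in IPPK knock-down, where 27.5% and 26.7%, 31.5% and 30.6%, and 28% and 27.3% of all genes were. Their median log2 fold change was 0.31, 0.31 and 0.32. By the methods' t-test fewer kinases, and fewer of all genes, were called with DBP5 and IPPK siRNA (counts in the closing section). MAP3K14, the kinase NIK of the non-canonical pathway, rose to 2.33-fold control with GLE1 siRNA and 2.44-fold with IPPK siRNA (adjusted p = 1.24e-08 and 1.54e-08). In DBP5 knock-down it rose to 1.45-fold control (adjusted p = 8.67e-06). TAB3, a subunit of the TAK1 complex, rose to 2.42-fold control with DBP5 siRNA and 2.34-fold with GLE1 siRNA, and MAP3K7, TAK1 itself, to 1.73-fold with DBP5 siRNA and 1.57-fold with IPPK siRNA. The falls were smaller. IKBKB fell to 71.6% and MAP3K8 to 81.2% of control with DBP5 siRNA, MAP3K8 to 76.2% and IKBKG to 82.5% with GLE1 siRNA, and IKBKE to 79.1% and TAB2 to 89.6% with IPPK siRNA (adjusted p = 0.0347 and 0.02). The number of kinases lower in IPPK knock-down was 0 without control replicate 2 or IPPK replicate 2 and 1 without any other control or IPPK array. In these fits 25.4% to 26.3% of all genes were lower.

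The 15 ubiquitin regulators and further IkappaB proteins were called lower and higher in 9 and 2 cases with DBP5 siRNA, 6 and 7 with GLE1 siRNA, and 6 and 4 with IPPK siRNA, against 27.5% and 26.7%, 31.5% and 30.6%, and 28% and 27.3% of all genes. NFKBID, another nuclear IkappaB protein, fell to 41.5% of control with DBP5 siRNA and 24.9% with GLE1 siRNA (adjusted p = 0.00052 and 1.31e-05), the pair of knock-downs in which NFKBIZ was also lower. UBE2N, the enzyme that builds signalling ubiquitin chains, fell to 42% with DBP5 siRNA, and OTULIN, which removes linear chains, to 35.5% with GLE1 siRNA. TAX1BP1, a partner of TNFAIP3, fell to 75.7% with IPPK siRNA, and RBCK1 to 58.7%, 38.9% and 81.3% with DBP5, GLE1 and IPPK siRNA. BTRC, the ligase subunit that recognises phosphorylated IkappaB, rose to 2.77-fold, 2.53-fold and 1.85-fold control with DBP5, GLE1 and IPPK siRNA. RNF11 rose to 1.57-fold with DBP5 siRNA and 2.03-fold with GLE1 siRNA, and ITCH to 1.83-fold with IPPK siRNA. The adjusted p of the named changes in this list was at most 0.00386. The number lower in GLE1 knock-down was 3 without GLE1 replicate 2 or GLE1 replicate 3, where 29.7% and 30% of all genes were lower.

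Downstream, 34 further NF-kappaB target genes were listed, of which 30 were tested and 27 were well above background on all 12 arrays. This list, too, was chosen with earlier results of these data known. CCL5, CXCL10, SELE and VCAM1 were too dim to test. With DBP5 siRNA 26 of the 30 were called lower and 3 higher, with GLE1 siRNA 16 and 13, and with IPPK siRNA 16 and 9, against 27.5% and 26.7%, 31.5% and 30.6%, and 28% and 27.3% of all genes. Over the 27 genes the counts were 23 and 3, 13 and 13, and 13 and 9. The median log2 fold change of the 30 was -1.27, -0.29 and -0.34. The chemokine gene CCL20 fell to 6.57% of control with DBP5 siRNA and 37.5% with GLE1 siRNA. The growth factor gene CSF2 fell to 9.9% with DBP5 siRNA and the chemokine gene CXCL3 to 30.2% with GLE1 siRNA. LTB, the lymphotoxin chain that signals to the non-canonical pathway, fell to 15.7%, 45.9% and 14.4% with DBP5, GLE1 and IPPK siRNA. The cytokine gene IL1A fell to 17.1% with IPPK siRNA and 16.9% with DBP5 siRNA.

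Other targets rose in the same cells. BIRC3, a ubiquitin ligase that degrades NIK, rose to 27.6-fold control with IPPK siRNA, and TRAF1, its binding partner, to 9.43-fold with IPPK siRNA and 4.13-fold with GLE1 siRNA. TNFRSF9 rose to 5.59-fold with GLE1 siRNA. In DBP5 knock-down BIRC3 fell to 68.5% and TRAF1 to 40.7% of control. NINJ1 rose to 2.2-fold, 2.8-fold and 2.13-fold and the survival gene BCL2A1 to 1.32-fold, 2.05-fold and 3.14-fold with DBP5, GLE1 and IPPK siRNA. All of these target changes had an adjusted p of at most 0.00016. Compared between knock-downs, 24 of the 30 targets were called higher and 0 lower with GLE1 than with DBP5 siRNA, where 26.5% and 28% of all genes were. Over the 27 targets well above background on all 12 arrays the counts were 22 and 0.

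**Figure D5:**
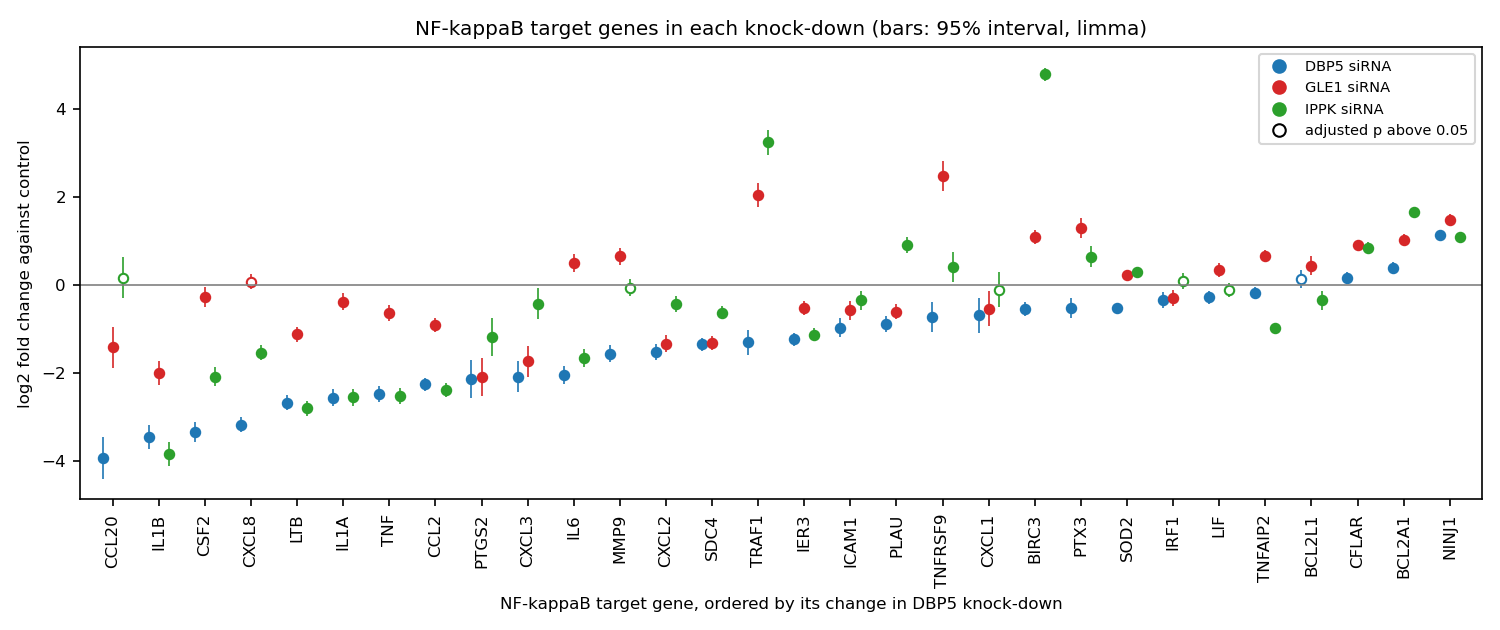
Log2 fold change against control (y axis) of the 30 NF-kappaB target genes tested, ordered by their value with DBP5 siRNA, in the 3 knock-downs; points are limma estimates, bars 95% intervals, open points have an adjusted p above 0.05, and IL1B, PTGS2 and TNF were not well above background on every array. The DBP5 values run from -3.93 for CCL20 to 1.14 for NINJ1, and BIRC3 with IPPK siRNA is the highest point at 4.79.

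The genes whose values were nearest to the members with the widest span were sought among 18425 genes with a probe above background on every array, by the root mean square difference of the 3 log2 fold changes. For TNFAIP3 they were ATP13A3 (0.113), UBTF (0.114) and YOD1 (0.115). UBTF had -1.20, 0.50 and -0.33 with DBP5, GLE1 and IPPK siRNA, where TNFAIP3 had -1.08, 0.65 and -0.28. For NFKBIZ they were ZNF180 (0.025), MPHOSPH9 (0.05) and KIF26A (0.061). ZNF180 had -0.41, -1.20 and 0.26, where NFKBIZ had -0.40, -1.17 and 0.28.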

How the data were processed

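The data are 12 Agilent arrays, single-dye, of cytoplasmic RNA from U2OS cells. Per the labels, there are 4 siRNAs with replicates 1 to 3, and the replicate number is also the slide. The methods describe the array experiments as independent, but p-values measure only the spread between these arrays. The study's array gene lists came from rank products. Its paired t-test, named under general statistics, is not stated to have been used on the arrays.

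The scanner output that the authors deposited comes from Feature Extraction (version 10.7.3.1 in the file headers), with the intensity of each spot after background subtraction, median spot and background intensities, and flags. They also deposited a table of log2 values, normalized by LOESS in R per the methods. Its columns followed the log2 median spot intensity (r at least 0.9998 across probes), and which background setting was used is not given in the sources used here.

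From the background-subtracted intensity, log2 values of the spots of a probe were averaged, leaving out control spots and 169 to 358 outlier spots per array, and normalized by cyclic loess. Of 34127 probes, 26449 were named through RefSeq (GRCh38.p14, used for names only because the array was designed on hg19). The brightest probe stood for each gene, and the filter on dim probes asked that it be well above background on all 3 arrays of some siRNA, which 20821 genes passed. Limma 3.58.1 in R 4.3.3 fitted 1 mean per siRNA, with Benjamini-Hochberg adjustment within each contrast at 0.05. No molecules are counted on an array, and the precision is limited by the number of arrays and by the signal over background. The step was tested on simulated data. Tables and figures used Python 3.11.15, pandas 2.3.3 and matplotlib 3.10.9.

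Arrays of the same number deviated together from their group means (r of 0.318 to 0.513 across genes over 18 pairs, against -0.285 to -0.05 over 36 other pairs), so the number pairs the arrays, and fits with it as a block were run. Other settings tried were the 75th percentile as scale, quantiles, normexp (offset 50, on median signals), the authors' values, other filters on dim probes, the mean of a gene's probes, a fit of the 6 arrays compared, leaving out each array, the methods' t-test (on pairs from the same slide), and, chosen after seeing the data, normalization before averaging. Named genes are the 10 members, the siRNA targets, per list and knock-down up to 2 largest falls and 2 largest rises called and above background on all arrays, and the 3 genes nearest to the 2 members of widest span; values of some list genes in further knock-downs, such as MAP3K14 with DBP5 siRNA, were added after they were seen. The members and lists were chosen with earlier results of these data known. One marker gene is not reported here.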

Additional observations from a re-analysis of the deposited data

Results flagged for a closer look

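Some inhibitor genes were called lower than control in 1 knock-down and higher in another. The difference between those knock-downs joins both calls against the same control arrays, so its own call adds no further support. NFKBIA differed by 0.79 on the log2 scale between GLE1 and DBP5 knock-down, higher with GLE1 siRNA. NFKBIE was higher with GLE1 siRNA by 0.96 than with DBP5 siRNA and by 1.32 than with IPPK siRNA. TNFAIP3 was higher with GLE1 siRNA by 1.73 than with DBP5 siRNA and by 0.93 than with IPPK siRNA. NFKBIZ differed by -1.45 between GLE1 and IPPK knock-down, lower with GLE1 siRNA, and by -0.69 between DBP5 and IPPK knock-down, lower with DBP5 siRNA. The adjusted p of these differences was 2.09e-06 or lower in each case, and the 3 arrays of either group did not overlap. Both follow in large part from the choice of members on opposite sides of control.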

How the results depend on the processing

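Most values kept their direction and their side of the threshold. By the methods' t-test on pairs from the same slide, members called lower were 3 with DBP5 siRNA, 1 with GLE1 siRNA and 3 with IPPK siRNA (6, 2 and 5 by limma). Of all genes, that t-test called 12.5%, 24% and 17.7% lower and 11.7%, 23.2% and 18.9% higher, where limma called 27.5%, 31.5% and 28% lower and 26.7%, 30.6% and 27.3% higher. The calls lost were those of REL, NFKBIB and NFKBIE with DBP5 siRNA, REL with GLE1 siRNA, and REL and TNFAIP3 with IPPK siRNA. Members called in either direction between DBP5 and IPPK were 4 (9 by limma), and 19% of all genes (48.9% by limma). NFKBIB in GLE1 against DBP5 and RELB in GLE1 against IPPK knock-down were lost as well (adjusted p = 0.12 and 0.0966 by that t-test). Members called higher with DBP5 siRNA were 1, RELB, in place of 0 with normexp, with the authors' values and with normalization before averaging. Of all genes 26.2%, 26.2% and 27.3% were called higher in these settings. With each array left out in turn, members called lower ranged from 6 to 6 with DBP5 siRNA, 1 to 2 with GLE1 siRNA and 3 to 5 with IPPK siRNA, and called higher from 0 to 1, 4 to 4 and 3 to 4. Of all genes, 25% to 28%, 29.3% to 31.8% and 25.4% to 28.8% were called lower in those fits. Called higher were 24.4% to 26.9%, 28.1% to 31.2% and 25% to 28%. The counts between knock-downs were 6 to 7 (GLE1 against DBP5), 9 to 9 (GLE1 against IPPK) and 9 to 10 (DBP5 against IPPK), and those of targets called lower 25 to 26, 14 to 16 and 15 to 16. Between knock-downs, 49.7% to 55.6%, 55.2% to 61.6% and 43.7% to 48.9% of all genes were called in those fits. By the same t-test, with the shares of all genes given above, the kinases were lower and higher in 1 and 3 cases with DBP5 siRNA (3 and 6 by limma), lower in 1 with GLE1 siRNA (2) and lower and higher in 0 and 3 with IPPK siRNA (2 and 7), the ubiquitin regulators lower and higher in 4 and 1 with DBP5 siRNA (9 and 2) and lower in 2 with IPPK siRNA (6), and targets higher in 1 with DBP5 siRNA (3). Kinases lower with IPPK siRNA were 1 with normexp and without a filter on dim probes, where 27.8% and 21% of all genes were lower. Ubiquitin regulators lower with GLE1 siRNA were 3 with normalization before averaging, where 30.4% of all genes were lower.

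Apart from NFKBIB with DBP5 siRNA, the members whose direction turned were not called in the comparison concerned. NFKB1 with DBP5 siRNA was 0.0188 with normexp and 0.0202 with normalization before averaging, and -0.0337 to 0.0516 with an array left out. NFKBIB with DBP5 siRNA was 0.0024 with the mean of its probes. REL in GLE1 against IPPK knock-down was -0.0198 with scaling to the 75th percentile, -0.0356 with normexp and -0.0388 with the authors' values, and -0.076 to 0.102 with an array left out. With an array left out, NFKB2 ranged from -0.154 to 0.0254 with DBP5 siRNA, from -0.131 to 0.0176 with GLE1 siRNA and from -0.0957 to 0.0833 in GLE1 against DBP5 knock-down, and RELA from -0.167 to 0.0482 in the last comparison. The replicate number as a block added NFKB2 with IPPK siRNA and REL in GLE1 against DBP5 knock-down and changed no other call of a member. NFKB2 with IPPK siRNA was also called with normexp, with the authors' values, with only genes above background on all arrays, with only the 6 arrays compared and with normalization before averaging (adjusted p from 0.031 to 0.0488). The 75th percentile scaling moved the median of all genes with DBP5 siRNA from -0.02 to -0.07. RELA with IPPK siRNA had a standard error of 0.10 on the log2 scale, against 0.04 for NFKBIZ, whose change of 0.28 there was called at an adjusted p of 0.000337.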
